A study of Canis lupus familiaris with 2 samples.

Results

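The respiratory chain and the ATP synthase were examined in cardiac fat pad tissue of dogs with and without forced expression of miR-206. Members were all genes of the array table whose single annotated symbol starts with NDUF, SDH, UQCR, COX, CYC1, CYCS or ATP5, which gave 28 genes read by 39 probe sets, out of 823 named genes and 1628 probe sets. A probe set is a group of short oligonucleotide probes that together read 1 transcript on an Affymetrix array. The lenti-control group was injected with a lentivirus that carries a scrambled sequence, and the lenti-miR-206 group with a lentivirus that overexpresses miR-206, a microRNA known from muscle. Both groups were adult mongrel dogs of either sex, and the virus was injected directly into the left superior fat pad, which lies on the left atrium and holds autonomic ganglia. Total RNA of 3 dogs was pooled per group and each pool was read on 1 array, 2 weeks after infection according to the label of the lenti-miR-206 sample and the methods of the study. The methods of the study give no atrial tachypacing for the groups of these names, and the labels of the samples do not mention it. With 1 array per group the spread between dogs is unknown, so the groups were not tested against each other.

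Mitochondria pass electrons from NADH through complex I, or from succinate through complex II, to ubiquinone, then through complex III, cytochrome c and complex IV to oxygen. Complexes I, III and IV pump protons during this transfer, and complex V, the ATP synthase, uses the proton gradient to make ATP. Each complex except complex II combines subunits from nuclear and mitochondrial genes, with a catalytic core, accessory subunits around it, and assembly factors that are not part of the finished complex. Heart muscle is among the tissues richest in these complexes, white fat is poorer, and brown fat is rich in the chain but poor in ATP synthase.

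All 28 genes and all 39 of their probe sets had a higher deposited log2 intensity after lenti-miR-206 than after lenti-control. Read against the median of 5 GAPDH controls of the arrays, however, 15 of the 28 genes turn lower and 13 stay higher. Of the 583 other named genes with higher deposited values, 290 stay higher in that reading. Differences are given throughout as the lenti-miR-206 minus the lenti-control log2 value, and those of the 28 genes ran from 1.04 to 1.99 with a median of 1.26, which is 2.40-fold. Each gene with several probe sets is represented here by the one with the highest mean. In the table as a whole 75.1% of the probe sets and 74.2% of the genes were higher by at least 2-fold, and the median over all named genes was 1.17. Only probe sets whose arrays are at least 2-fold apart, in either direction, are in the deposited table. A member could therefore appear only with a difference of this size, and members with smaller differences are not analysed here. The lowest members lay just above that limit, UQCRQ at 1.04, NDUFA13 at 1.04, ATP5F1A at 1.05 and NDUFB11 at 1.05.

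**Figure D1:**
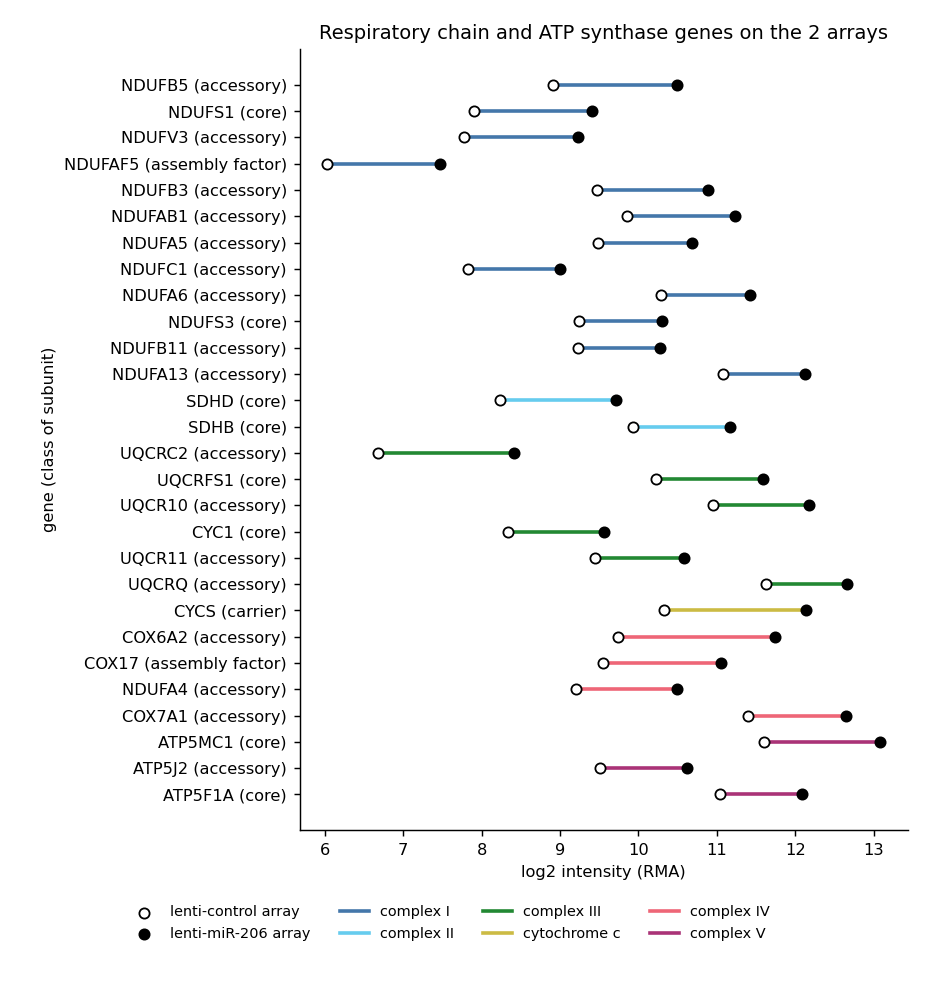
Log2 intensity (x axis) of the 28 chain and ATP synthase genes (y axis, with the class of subunit) on the lenti-control array (open circles) and the lenti-miR-206 array (filled circles), joined by a line coloured by complex, with 1 array of pooled RNA per group and no error bars. Every filled circle lies to the right of its open circle, by 1.04 for UQCRQ up to 1.99 for COX6A2, before any reading against GAPDH. Positions of different genes depend on their probes and do not rank transcript abundance.

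Of 37 nuclear subunits listed for complex I, 11 were in the table, and 1 of 9 listed assembly factors. The core subunits NDUFS1 and NDUFS3 sit in the arm of the complex that reaches into the matrix. NDUFS1, which carries iron-sulphur clusters and receives electrons from the NADH site, read 7.90 on the lenti-control and 9.40 on the lenti-miR-206 array, a difference of 1.50 or 2.83-fold. NDUFS3, which helps to form the module that reduces ubiquinone, had 9.24 and 10.31, a difference of 1.06. The 2 core subunits thus lay near opposite ends of the range of this complex, 1.04 to 1.57.

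The accessory subunits of the complex I matrix arm were NDUFV3, NDUFA5 and NDUFA6. NDUFV3, bound to the NADH-oxidizing flavoprotein, had 7.78 and 9.23, a difference of 1.45. NDUFA5 had 9.48 and 10.68, a difference of 1.20. NDUFA6, which anchors the acyl carrier protein in this arm, had 10.29 and 11.43, a difference of 1.13. That acyl carrier protein is NDUFAB1, which is bound in both arms and also serves mitochondrial fatty acid synthesis. NDUFAB1 had 9.86 and 11.24, a difference of 1.38.

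In the membrane arm, NDUFB5 gave the largest difference of complex I among the representative probe sets, with 8.92 on the lenti-control and 10.49 on the lenti-miR-206 array, or 2.98-fold. Other probe sets of NDUFS1 and NDUFAB1 gave larger differences, up to 1.85 and 1.81. NDUFB3, another small membrane subunit, had 9.47 and 10.89, a difference of 1.42. NDUFC1 had 7.83 and 8.99, a difference of 1.17. The smallest differences of this arm were those of NDUFB11, with 9.22 and 10.28, and of NDUFA13, also known as GRIM-19, with 11.08 and 12.13. The median difference was 1.20 for 5 matrix arm and 1.17 for 5 membrane arm subunits, so the arms lay close together. The assembly factor NDUFAF5, which hydroxylates the core subunit NDUFS7, had 6.03 and 7.47, a difference of 1.44.

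Complex II, which is also an enzyme of the citric acid cycle, was represented by 2 of its 4 subunits. SDHB, the iron-sulphur subunit, read 9.93 on the lenti-control and 11.17 on the lenti-miR-206 array, or 2.36-fold. SDHD, a membrane anchor next to the ubiquinone site, had 8.23 and 9.71, or 2.78-fold. SDHA, SDHC and the 4 listed assembly factors of complex II are not analysed here.

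In complex III 6 of 10 listed nuclear subunits were in the table, among them both of its nuclear catalytic subunits. A listed subunit is in the table only with an annotated probe set at least 2-fold apart, so the complexes are not ranked by share. UQCRFS1, the Rieske iron-sulphur protein, had 10.22 and 11.59, a difference of 1.37, and CYC1, cytochrome c1, had 8.34 and 9.55, a difference of 1.22. UQCRC2, a large matrix subunit related to processing peptidases, had 6.68 and 8.42, a difference of 1.74 or 3.33-fold, the largest of the complex. The small accessory subunits differed less. UQCR10 had 10.95 and 12.17, UQCR11 had 9.45 and 10.59, and UQCRQ had 11.62 and 12.66, which gave differences of 1.22, 1.14 and 1.04.

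Cytochrome c (CYCS), the soluble carrier that takes electrons from complex III to complex IV, read 10.32 on the lenti-control and 12.13 on the lenti-miR-206 array, a difference of 1.81 or 3.51-fold. Its other probe set had 8.90 and 10.96, a difference of 2.06, the largest of all 39 probe sets.

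Of 18 listed nuclear subunits of complex IV, 3 were in the table, and 2 of these are the isoforms typical of heart and skeletal muscle. COX6A2, the muscle isoform of subunit 6A, read 9.74 on the lenti-control and 11.74 on the lenti-miR-206 array, or 3.98-fold, the largest difference of the 28 genes. COX7A1, the muscle isoform of subunit 7A, which brown fat also expresses, had 11.40 and 12.65, or 2.37-fold. The widely expressed isoforms COX6A1 and COX7A2 are not analysed here, so a shift between isoforms could not be examined. NDUFA4, first counted to complex I and now to complex IV, had 9.21 and 10.49, a difference of 1.28. The copper chaperone COX17, which supplies copper for the assembly of complex IV, had 9.54 and 11.05, a difference of 1.51. It was the only 1 of 10 listed assembly factors of complex IV in the table.

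Complex V was represented by 3 of 17 listed subunits. ATP5MC1, 1 of the genes for the rotating c ring, had 11.60 and 13.08, a difference of 1.48. ATP5F1A, the alpha subunit of the catalytic head, had 11.04 and 12.08, a difference of 1.05, and ATP5J2, subunit f of the membrane part, had 9.51 and 10.62, a difference of 1.12. The probe set of ATP5MC1 has the suffix s_at, and the 3 genes of the c subunit encode the same mature protein. Whether this probe set also reads the others was not tested. The catalytic subunit ATP5F1B and the inhibitor ATP5IF1 are not analysed here.

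By class, 8 of 22 listed core subunits had a median difference of 1.31, and 17 of 64 accessory subunits had a median of 1.22. The ranges overlapped, from 1.05 to 1.50 for core and from 1.04 to 1.99 for accessory subunits. The assembly factors NDUFAF5 and COX17 lay at 1.44 and 1.51, and 24 were listed. By complex, assembly factors included, the medians were 1.29 for complex I, 1.36 for complex II, 1.22 for complex III, 1.39 for complex IV and 1.12 for complex V. These medians rest on 12, 2, 6, 4 and 3 genes, and no complex was separated from the others. None of the 13 mitochondrially encoded subunits was found in the table by its symbol, so the catalytic core of complex IV and the other products of mitochondrial DNA are not analysed here.

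**Figure D2:**
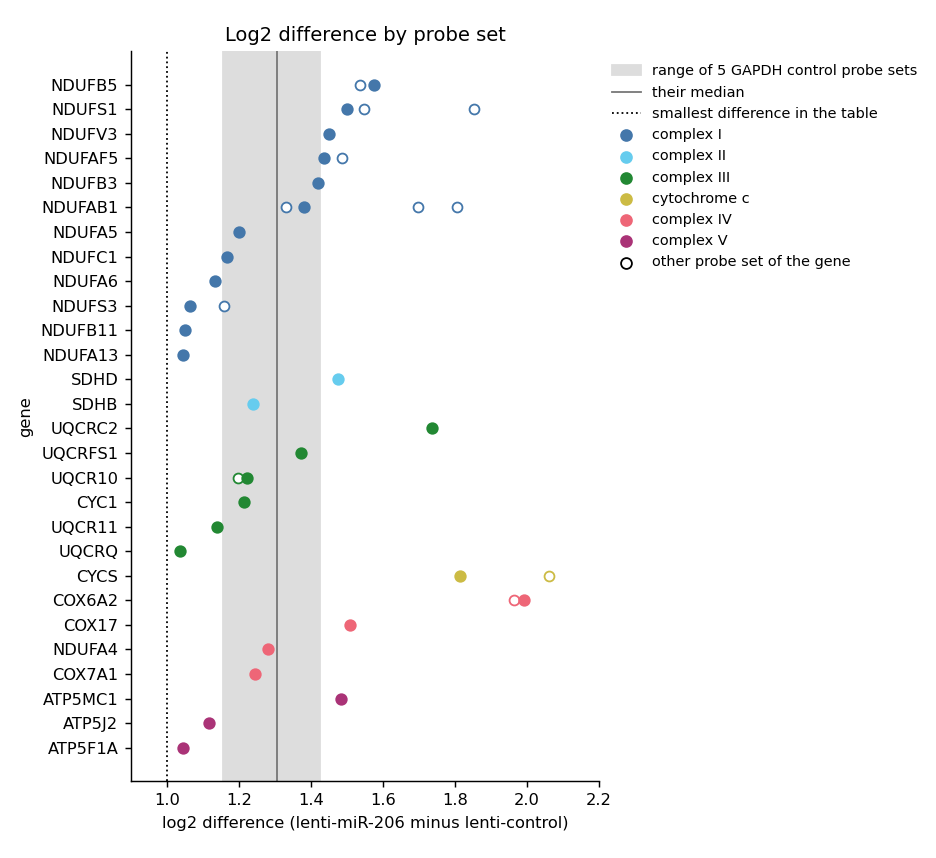
Difference in log2 intensity, lenti-miR-206 minus lenti-control (x axis), for each of the 39 probe sets of the 28 genes (y axis), coloured by complex, where filled circles are the probe sets that represent a gene, open circles its other probe sets, the grey band the range of 5 GAPDH control probe sets, the grey line their median of 1.31 and the dotted line the smallest difference in the table. CYCS, COX6A2 and UQCRC2 have the filled circles farthest to the right, and 15 of the 28 filled circles lie to the left of the grey line.

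Several probe sets were available for 8 of the 28 genes, and they gave the same direction in each gene. In 5 of the 8 genes their differences lay within 0.1 of each other. The spread was widest for NDUFAB1, whose 4 probe sets gave 1.33, 1.38, 1.70 and 1.81. NDUFS1 followed, with 1.50, 1.55 and 1.85 for its 3 probe sets. The dimmest probe set gave the largest difference in 5 of the 8 genes, NDUFAB1, NDUFS1, CYCS, NDUFS3 and NDUFAF5. The dimmest of NDUFAB1 read 5.23 and 7.03 and the dimmest of NDUFS1 read 4.73 and 6.58. For COX6A2, however, the probe sets gave 1.96 and 1.99 although their lenti-control values were 7.17 and 9.74. Probe sets with a smaller difference are outside the table, so the spread between probe sets may be understated. Of the 39 probe sets 27 had the suffix s_at or x_at, which marks probes that can hybridize to related transcripts, and 16 of the 28 genes were read by such probe sets alone.

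The sizes of the increases were set beside those of the other higher genes of the table. The middle 50% of the chain genes lay between 1.14 and 1.48, and that of the 583 other higher genes between 1.13 and 1.64, around medians of 1.26 and 1.30. A difference of at least 2.5-fold was found for 13 of 28 chain genes (46.4%) and for 48.0% of the others. At least 3-fold were COX6A2, CYCS and UQCRC2 (10.7%), compared with 28.5% of the others. None of the 28 genes reached 4-fold with its representative probe set, although CYCS did with its other probe set, and 10.1% of the other genes did. These shares are descriptions of 2 arrays, and no test of their difference was made. The chain probe sets were bright, and 26 of 28 genes had a lenti-control value in the upper part of the higher genes, from 7.42 upwards. Among the 178 other higher genes in that part the median difference was 1.32, and for the 26 chain genes it was 1.24. The brightness of a probe set depends on its probes and is no measure of abundance between genes.

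**Figure D3:**
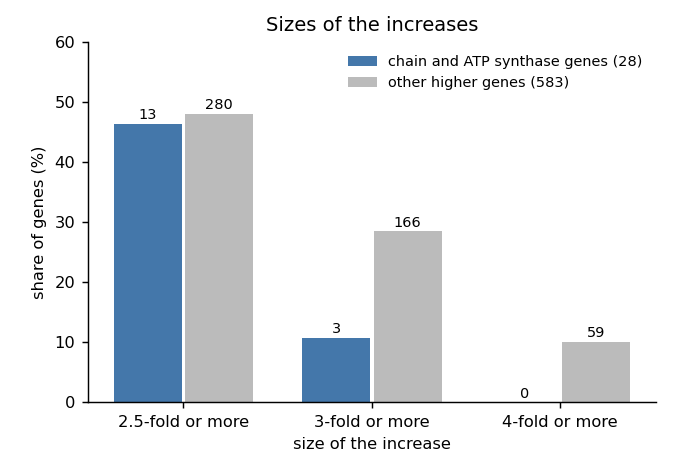
Share of genes in percent (y axis) whose increase in the lenti-miR-206 pool was at least 2.5-fold, 3-fold or 4-fold (x axis), for the 28 chain and ATP synthase genes (blue) and the 583 other higher genes of the table (grey), with the number of genes above each bar. The shares are 46.4% and 48.0% at 2.5-fold, and 10.7% and 28.5% at 3-fold.

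Genes that feed or serve the chain were also higher as deposited wherever they were in the table, as were 611 of 823 named genes. With representative probe sets, part of each list except the single transcription gene turned lower against the GAPDH controls. Of the 823 named genes 303 stayed higher in that reading. Of 34 assembly factors with other names, 5 were in the table and all 5 were higher, with a median of 1.17. Against GAPDH only UQCC1 stayed higher with its representative probe set. This depends on the probe set, because others of LYRM7 and HIGD1A reached 2.09 and 1.79, above the GAPDH median of 1.31. The other probe set of UQCC1, at 1.11, lay below it. With representative probe sets UQCC1 and LYRM7, which act in the assembly of complex III, had differences of 1.48 and 1.21. TMEM70, which acts in that of complex V, had 1.07. Of 20 genes for other electron entry and for coenzyme Q, 8 were in the table and all 8 were higher, with a median of 1.26, and against GAPDH 3 stayed higher, COQ10A, COQ10B and ETFDH. COQ10A and COQ10B, which bind coenzyme Q, were 4.04-fold and 3.99-fold higher, from low lenti-control values of 5.32 and 5.07. Their other probe sets gave smaller log2 differences of 1.75 and 1.50. ETFA and ETFDH, which pass electrons from fatty acid oxidation to ubiquinone, were 2.31-fold and 2.56-fold higher. ETFB is not analysed here.

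Of 16 genes for ADP and ATP exchange, porins and proton leak, 5 were in the table and all 5 were higher, with a median of 1.64, and against GAPDH 3 stayed higher, CKMT2, UCP1 and SLC25A4. The mitochondrial creatine kinase CKMT2 was 4.93-fold higher, with 8.75 on the lenti-control and 11.05 on the lenti-miR-206 array. The ADP/ATP carrier of heart and muscle, SLC25A4, was 3.11-fold higher, with 10.37 and 12.01. The uncoupling protein UCP1, which is not in the list of adipocyte markers used below, was 4.21-fold higher, with 6.79 and 8.87. The porins VDAC2 and VDAC3 of the outer membrane had differences of 1.15 and 1.02. Of 19 genes of the citric acid cycle and pyruvate dehydrogenase, 5 were in the table and all 5 were higher, with a median of 1.18. Among representative probe sets IDH2 was the highest at 1.56, and against GAPDH 2 stayed higher, IDH2 and DLST. Other probe sets of IDH3A and IDH3B reached 1.59 and 1.50, above the GAPDH median of 1.31. Of 17 genes for the transcription of chain genes the table held 1, the coactivator PPARGC1A, with 6.13 and 7.63, a difference of 1.50. The nuclear factors NRF1 and GABPA and the receptor ESRRA, which act on many chain promoters, are not analysed here.

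Markers of heart muscle and of fat cells moved beside the chain genes. The 25 cardiomyocyte markers include CKMT2, which is also in the list for ADP and ATP exchange. Of these markers 18 were in the table and all 18 were higher, with a median of 1.66, and 16 stayed higher against GAPDH. Of 823 named genes 611 were higher, and 303 stayed higher against GAPDH. MYH7 turned lower but had another probe set at 1.81. TNNC1 and TTN stayed higher but had probe sets down to 1.09 and 1.19, below the GAPDH median of 1.31. The intensities of the 18 markers, summed on the linear scale, were 2.81 times as high after lenti-miR-206 as after lenti-control, and those of the 28 chain genes 2.46 times. Each sum holds only genes at least 2-fold higher, so it had to rise at least 2-fold, and the brightest probe sets weigh most in it. Of the chain genes, COX6A2, CYCS and UQCRC2 lay above the cardiomyocyte median. Of 20 adipocyte markers 11 were in the table and all 11 were lower, with a median of -1.87, as were 212 of 823 named genes. All 11 also stayed lower against the spike-in median of -1.08. That reading adds little, because every lower gene had to be at least 2-fold lower. The summed intensity of the 11 markers fell to 0.288 of the lenti-control value, where the same limit forced a fall of at least 2-fold. Fat cell markers of the labelled tissue were present in both pools, ADIPOQ with 13.21 and 11.34 and FABP4 with 14.20 and 12.80. Cardiomyocyte markers were also present in both pools, MYL7 with 13.09 and 14.27 and TNNI3 with 12.07 and 13.41. The dimmest listed marker in the table was ACACA, with 5.53 on the lenti-miR-206 array, against 2.95 for the lowest value of any probe set. Of the cardiomyocyte markers MYH6, MYL2, MYL3, SLN, NPPA, CKM and LDB3 are not analysed here, and of the adipocyte markers PLIN1, LIPE and CEBPA are among 9 not analysed. The part of heart muscle or fat content in the chain result was not tested, and more cells of a type cannot be told apart from more RNA per cell in such tissue.

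**Figure D4:**
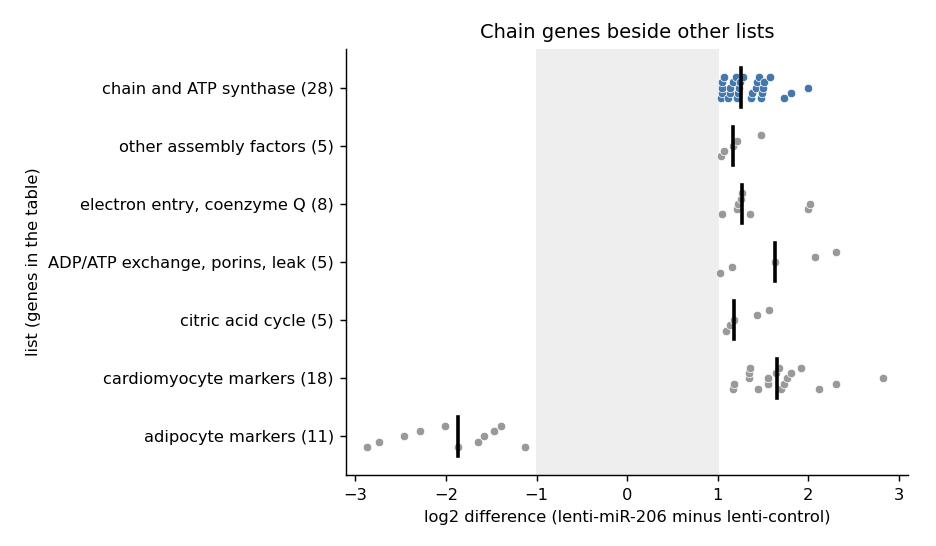
Difference in log2 intensity, lenti-miR-206 minus lenti-control (x axis), of single genes (points) in each list (y axis, with the number of its genes in the table), where black bars are medians and the grey area covers differences under 2-fold, which the table lacks. The chain genes in blue lie between 1.04 and 1.99, the cardiomyocyte markers reach 2.83 and all 11 adipocyte markers lie below -1, while a reading against GAPDH would shift every point by 1.31 to the left.

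The control probe sets of the arrays bear on the level from which these differences are read. The 5 GAPDH control probe sets were higher in the lenti-miR-206 pool by 1.16 to 1.43, with a median of 1.31, and 13 bacterial spike-in controls were lower by a median of -1.08. An actin control of the 5′ end was higher by 1.41. The control probe sets in the table passed the same 2-fold limit as the genes, so controls with smaller differences are not seen and both medians are those of selected controls. Relative to the GAPDH median 13 of 28 chain genes were higher and 15 lower, and the median chain gene lay at -0.044, with the median of all named genes at -0.14. In this reading 303 of 823 named genes were higher, and 290 of the 583 other higher genes, with a median of -0.0027. The chain genes thus lay near the other higher genes. The split depends on the control chosen, because a member with a difference between 1.16 and 1.43 lies above some GAPDH controls and below others. A reading against the spike-in controls says nothing about direction, because members above the limit and controls below it had to lie apart. The GAPDH controls also read different ends of the transcript. The control at the 3′ end differed by 1.16, that in the middle by 1.31 and that at the 5′ end by 1.43, so that the 5′ minus 3′ signal was -0.70 on the lenti-control and -0.43 on the lenti-miR-206 array. This gap between the ends moved with the groups, and its part in the chain result was not tested.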

How the data were processed

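The authors deposited log2 intensities of 2 Affymetrix canine arrays, 1 per group, made with RMA according to the submitters' processing notes. RMA corrects the background, normalizes arrays to each other and summarizes each probe set. Differences at very low and very high signal are compressed in such array values. The sources used here give neither the version of RMA nor which arrays it treated jointly. In all the table holds 1628 probe sets, all differing by at least 2-fold, and 19 control probe sets. No depth applies to arrays, and the number of arrays limits the precision.

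Symbols came from the platform annotation. They were checked through Entrez identifiers against the dog assembly UU_Cfam_GSD_1.0 where these matched (1102 of 1182 probe sets with a single symbol), which altered 0 symbols. A further 424 probe sets had no symbol and 22 had several, and members may be among them. Differences, counts and medians were computed in Python 3.11.15 (pandas 2.3.3, numpy 2.4.6), with figures from matplotlib 3.10.9. The chain list has 112 genes, isoforms counted singly, with core subunits of complexes I, III and V being those with bacterial counterparts. All member genes could be named, and up to 5 of each other list by size of difference. ETFA and the cell type markers were named outside this rule, and these and DLST were named after their values were seen. Members and lists were chosen with earlier results of these data known. The alternatives were other probe sets per gene, leaving out dim, s_at or x_at probe sets, other reference levels, a threshold of 3-fold, unaltered symbols and subunits alone. No sequences are shown, because none were used here.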

Additional observations from a re-analysis of the deposited data

How the results depend on the processing

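No paired analysis was possible because each group has 1 array. Every member probe set in the table was higher, so no averaging, choice or subset of them could make a gene lower. The median was 1.26 with a gene's probe sets averaged or with the smallest difference taken, and 1.24 for subunits alone. Unaltered symbols and bright probe sets alone repeated the main reading, because 0 symbols were altered and 0 member genes were dim. Without s_at and x_at probe sets 12 higher genes were left, 6 of complex I, 1 of complex II, 2 of complex III, 2 of complex IV, 0 of complex V, and CYCS. Their median was 1.48, compared with 1.26 for all 28 genes. The median of complex III rose from 1.22 to 1.48. A threshold of 3-fold left 3 higher genes. Read against the spike-in controls the median was 2.34, a shift set by controls that themselves passed the 2-fold limit. Read against the median of the GAPDH controls 13 genes were higher and 15 lower, with a median of -0.044 for all genes. Of the 583 other higher genes 290 were higher in that reading. Among the chain genes the medians were -0.018 for complex I, -0.088 for complex III and -0.19 for complex V. They were -0.0016 for core and -0.085 for accessory subunits. Complex II had 0.051 (1 of 2 genes higher) and complex IV 0.087 (2 of 4 genes higher, and -0.026 for its subunits alone). The lower genes had values of -0.27 for UQCRQ, -0.26 for NDUFA13, -0.26 for ATP5F1A, -0.26 for NDUFB11, -0.24 for NDUFS3, -0.19 for ATP5J2, -0.17 for NDUFA6, -0.17 for UQCR11, -0.14 for NDUFC1, -0.11 for NDUFA5, -0.092 for CYC1, -0.085 for UQCR10, -0.067 for SDHB, -0.062 for COX7A1 and -0.026 for NDUFA4. No other probe set of these genes in the table stayed higher. Neither control is shown to be unchanged between the pools, and the cause was not tested. The dimmest member probe sets, of NDUFAB1 and NDUFS1, limit how far their differences can be read.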
